A study of Mus musculus with 6 samples.

Results

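The Meis, Pbx and Pknox genes encode homeodomain transcription factors of the TALE class, and they were followed here in tissue above and below the mouse aorta. The members are Meis1, Meis2, Meis3, Pbx2, Pbx3, Pknox1 and Pknox2, together with G630016G05Rik, a long noncoding RNA gene next to Meis2, which makes 8 of 24015 probe sets with a gene symbol. They were taken by symbol, as a family, and were chosen by their ventral and dorsal values in these arrays, so their differences between the tissues are described here and not tested. The ventral group is tissue from below the aorta and the dorsal group is tissue from between the aortic roof and the notochord, each on 3 arrays labelled as biological replicates 1 to 3. All embryos were unmanipulated C57Bl/6 at embryonic day 11.5 (E11.5), and the labels state that both tissues came from the same embryos. Tissue was cut by laser microdissection from stained 20 µm frozen sections, and 200 to 1000 pg of RNA per sample were amplified and put on Affymetrix Mouse Gene ST arrays, so that each sample is a mixture of cell types. Values are log2 expression levels, and levels of different genes are not compared because each has its own probes.

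TALE homeodomains carry an extra loop of amino acids between helices, which gives the class its name. Meis and Pknox (Prep) proteins bind Pbx proteins, and these dimers join Hox proteins on DNA and sharpen the choice of site. Hox proteins of the anterior and central paralog groups contact Pbx, and those of the posterior groups can also bind Meis. In the mouse, Meis1 and its partners are needed for fetal hematopoietic stem cells and megakaryocytes, Meis1 and Meis2 mark proximal limb and much trunk mesoderm, and Meis2 is induced by retinoic acid, as its older name Stra10 records.

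Meis2 and G630016G05Rik are neighbours on chromosome 2 and point away from each other in RefSeq, where their spans overlap at their starts. Their promoter windows (250 bases before to 50 after the annotated start, RefSeq, GRCm38.p6) are shown because these adjacent genes had the greatest differences among the members. The start sites used by these windows lie 2606 bases apart. The Meis2 window is chr2:116064570-116064869 on the minus strand and the G630016G05Rik window is chr2:116066975-116067274 on the plus strand, each printed in the direction of its gene, and capitals mark a match to TGATTGAC, a binding sequence of Pbx proteins.
Meis2: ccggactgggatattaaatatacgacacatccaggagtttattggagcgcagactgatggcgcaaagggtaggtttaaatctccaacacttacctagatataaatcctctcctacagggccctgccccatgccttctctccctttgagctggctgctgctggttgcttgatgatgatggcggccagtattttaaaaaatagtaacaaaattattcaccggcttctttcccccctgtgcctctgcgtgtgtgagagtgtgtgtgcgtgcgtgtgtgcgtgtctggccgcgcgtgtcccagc
G630016G05Rik: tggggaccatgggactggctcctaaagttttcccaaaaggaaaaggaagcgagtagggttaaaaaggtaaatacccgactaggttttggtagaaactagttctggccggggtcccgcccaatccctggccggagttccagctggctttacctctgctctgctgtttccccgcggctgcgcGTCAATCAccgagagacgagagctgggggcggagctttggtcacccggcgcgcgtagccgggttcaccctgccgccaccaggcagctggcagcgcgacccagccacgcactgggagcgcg
The match in the G630016G05Rik window reads GTCAATCA in the direction of the gene, so it lies on the other strand, and its first base is at position −70 from the start. TGATTGAC was present, on either strand, in 0.770% of 32851 promoter windows. The hexamer TGACAG, the Meis and Pknox binding sequence, was in 19.2% of windows, TGATTNAT, a Pbx and Hox sequence, in 3.22%, and AGGTCA, a core sequence bound by retinoic acid receptors, in 16.3%. Windows were available for 5 members (Meis1, Meis2, Meis3, Pbx2 and G630016G05Rik), and the one match was the only occurrence of these 4 motifs in them. The 5 windows held 13 (Meis2) to 29 (Pbx2) CG dinucleotides, against a median of 7 over all windows, and G630016G05Rik had 23.

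As a check of the labels, sclerotome markers were compared for the dorsal side and coelomic markers for the ventral side. These markers were chosen with earlier results of these data known, so the check is not independent of the arrays. Pax1 and the cartilage collagen Col2a1 fell in ventral tissue (log2 fold changes of −2.60 ± 0.24 and −1.75 ± 0.19, SE, limma adjusted p = 0.0183 and 0.0258), and Tcf21 rose (4.70 ± 0.29, adjusted p = 0.00347). The dorsal mean of Tcf21, 3.95, lay below the brightness filter at a mean of 4.52. It was thus tested through its ventral arrays, and its fold change gives no exact ratio of transcript. Emx2, a coelomic marker below the filter, lay the other way, with means of 3.36 in ventral and 5.55 in dorsal tissue. The summed log2 level of 8 sclerotome and cartilage markers ran from 36.5 to 38.0 on ventral and from 45.5 to 51.1 on dorsal arrays. Of 12028 genes tested, 62 passed an adjusted p of 0.05 in limma, which is 0.515%. The replicate 3 arrays stood apart in the list of liver and gut endoderm markers, whose summed log2 level over 8 genes was 60.0 on ventral 3 and 56.1 on dorsal 3, against 34.3 to 38.3 on the other 4 arrays. Of this list Afp, Alb, Apoa1 and Ttr were highest on both replicate 3 arrays. Cdh1, Epcam, Foxa1 and Foxa2 were not high on both. Values without replicate 3 are therefore given for every member.

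Of the 8 members, 7 had a higher mean in ventral tissue, as had 47.7% of all tested genes, and 1, Pknox1, had a lower one. Ventral and dorsal arrays did not overlap for 5 members, all higher in ventral tissue, as were 7.5% of all tested genes, while 7.88% were higher in dorsal tissue without overlap. In the fit over all genes 1 of the 8 passed the threshold, G630016G05Rik, beside 0.515% of all genes. These counts follow from how the members were picked. The median log2 fold change of the 8 was 0.63, beside −0.01 over all tested genes. All 8 passed the brightness filter at a mean of 4.52, G630016G05Rik only through its ventral arrays.

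**Figure D1:**
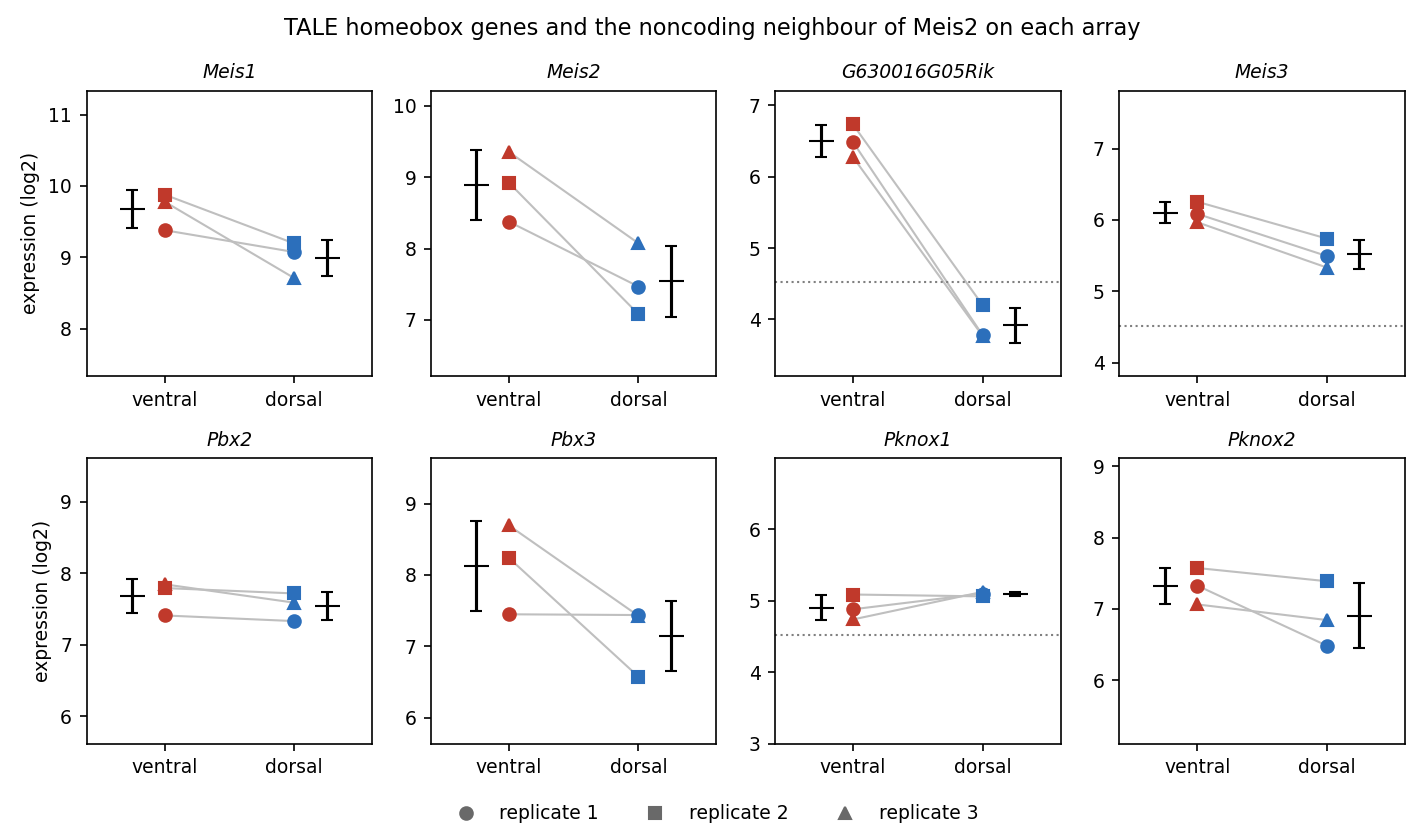
Expression (log2) of each member on the 3 ventral (red) and 3 dorsal (blue) arrays, with grey lines joining arrays of the same replicate number, bars for the mean ± SD and a dotted line at the brightness filter of 4.52, on axes spanning the same log2 range. The arrays of G630016G05Rik are furthest apart, and only its dorsal arrays lie below the filter.

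G630016G05Rik had 6.48, 6.73 and 6.27 on ventral arrays 1 to 3, against 3.78, 4.20 and 3.77 on dorsal arrays 1 to 3. Every ventral array was high, every dorsal array was low, and a gap of 2.07 separated the groups. The ventral mean was 6.50 ± 0.23 and the dorsal mean 3.92 ± 0.25 (SD, n = 3 each), a log2 fold change of 2.58 ± 0.17 (SE). That is 5.98-fold on the deposited values, and with a dorsal mean below the filter it gives no exact ratio of transcript. The same-numbered pairs differed by 2.71, 2.53 and 2.51, and it ranked 12 among 12028 genes by log2 fold change. Without replicate 3 the log2 fold change was 2.62.

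Meis2 itself was 2.54-fold higher in ventral tissue. It had 8.38, 8.92 and 9.35 on ventral arrays 1 to 3, against 7.47, 7.08 and 8.07 on dorsal arrays 1 to 3, and the lowest ventral array lay 0.30 above the highest dorsal one. The log2 fold change was 1.35 ± 0.23 (SE; 0.32 without the replicate number as a block) and 1.38 without replicate 3, with pair differences of 0.91, 1.84 and 1.28. The gene varied widely within each tissue, with SDs of 0.49 in ventral and 0.50 in dorsal arrays, and 87.9% and 89.9% of tested genes had an SD as low or lower. A mixed tissue cannot tell more RNA per cell from more Meis2-expressing cells.

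Within a tissue, Meis2 and G630016G05Rik did not order the arrays alike. Meis2 was highest on ventral 3 and on dorsal 3, whereas G630016G05Rik was lowest on both. Meis2 was lowest on dorsal 2, where G630016G05Rik was highest of the dorsal arrays. All dorsal values of G630016G05Rik lay below the filter, and dorsal 1 (3.78) and dorsal 3 (3.77) were nearly equal. Its order over the dorsal arrays is therefore uncertain. The root mean square difference between their centred values over the 6 arrays was 0.82, which ranked G630016G05Rik 6032 of 12027 genes by nearness to Meis2 and Meis2 105 by nearness to G630016G05Rik. Values were centred over all 6 arrays, so this measure also holds the unequal tissue differences of the 2 genes. It does not describe the order within a tissue alone.

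The nearest other measured genes were less far apart between the tissues, though no measured gene beyond the span of G630016G05Rik is given here. The long noncoding RNA 2810405F15Rik, which lies within the span of G630016G05Rik on the other strand in RefSeq, had 5.74, 5.51 and 5.82 on ventral arrays, against 4.83, 5.02 and 5.03 on dorsal arrays. Its arrays did not overlap, but it did not pass (log2 fold change 0.73 ± 0.18, limma adjusted p = 0.211). On the far side of Meis2 the nearest measured gene, the microRNA gene Mir1951, had a ventral mean of 4.27 ± 0.55 and a dorsal mean of 4.20 ± 0.41 (SD, n = 3 each), below the filter.

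Meis1, the member best known from hematopoietic stem cells and myeloid leukemia, had 9.38, 9.88 and 9.78 on ventral arrays 1 to 3. The dorsal arrays had 9.07, 9.19 and 8.71, all below the ventral ones, the nearest by 0.19. The log2 fold change was 0.69 ± 0.21 (1.61-fold), and the pair differences of 0.31, 0.68 and 1.07 were spread widely. Without replicate 3 it was 0.50. The noncoding RNA Gm16141, the next gene after Meis1 in RefSeq order and read from the opposite strand, had 6.20, 6.06 and 5.68 on ventral arrays, against 5.58, 5.61 and 5.34 on dorsal arrays (0.47 ± 0.17, limma adjusted p = 0.411). On the other side, 8430419K02Rik gave 0.44 ± 0.32 (adjusted p = 0.712).

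Meis3, a paralog studied mainly in hindbrain and enteric development, was the steadiest of the 3 Meis genes. It had 6.09, 6.26 and 5.97 on ventral arrays 1 to 3, against 5.49, 5.74 and 5.33 on dorsal arrays. No ventral array reached down to a dorsal one, and the pairs differed by 0.59, 0.52 and 0.64. The log2 fold change was 0.58 ± 0.17, and 0.55 without replicate 3. Its nearest measured neighbours were Slc8a2, with means of 4.19 in ventral and 3.58 in dorsal tissue, below the filter, and Dhx34, with a log2 fold change of −0.01 ± 0.17 (limma adjusted p = 0.991).

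Among the Pbx genes, whose proteins are the partners of Meis and Pknox, Pbx3 and Pbx2 behaved differently. Pbx3, needed in mice for control of breathing after birth, had 7.45, 8.24 and 8.69 on ventral arrays 1 to 3, against 7.44, 6.57 and 7.43 on dorsal arrays. The groups were apart by 0.01 only, because ventral 1 matched dorsal 1 and dorsal 3 while ventral 2 and ventral 3 were high. The pairs differed by 0.01, 1.67 and 1.27, giving a log2 fold change of 0.98 ± 0.33 (1.97-fold), which was 1.47 without replicate 1, 0.64 without replicate 2 and 0.84 without replicate 3. Pbx2, whose loss alone leaves mice without an obvious defect, had 7.41, 7.79 and 7.85 on ventral arrays and 7.33, 7.72 and 7.59 on dorsal arrays. These overlapped, and the log2 fold change of 0.14 ± 0.17 was smaller than its standard error, at 0.08 without replicate 3.

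Neither Pknox gene had separate groups. Pknox1 (Prep1), a widely expressed factor that competes with Meis proteins for Pbx, had 4.88, 5.09 and 4.74 on ventral arrays, against 5.10, 5.06 and 5.12 on dorsal arrays. The dorsal arrays lay close together, with an SD of 0.03, and only ventral 2 fell among them. The log2 fold change was −0.19 ± 0.18, and it was −0.30 without replicate 2 and −0.10 without replicate 3. Pknox2 had 7.33, 7.57 and 7.06 on ventral arrays, against 6.48, 7.39 and 6.84 on dorsal arrays. Dorsal 2 lay above 2 of the 3 ventral arrays, and the pair differences of 0.84, 0.19 and 0.22 show that most of the log2 fold change of 0.42 ± 0.21 came from the first pair. It was 0.20 without replicate 1 and 0.51 without replicate 3.

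**Figure D2:**
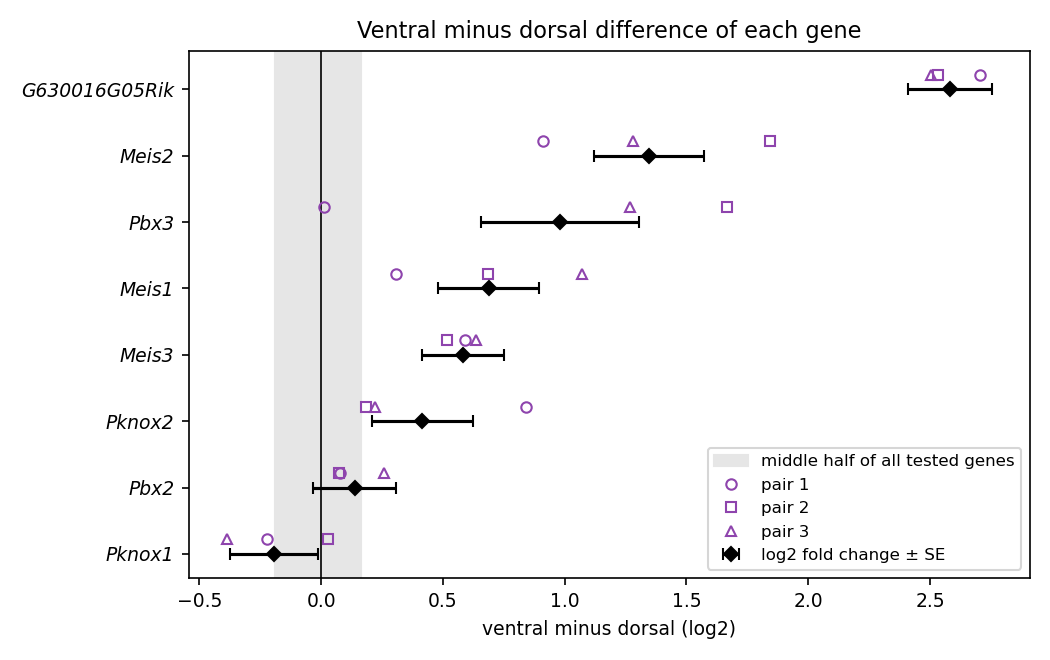
Ventral minus dorsal difference (log2) of each member, as the log2 fold change ± SE (diamonds) and as the difference of each same-numbered pair (open symbols), with the interquartile range of all tested genes shaded. G630016G05Rik lies near 2.58 in every pair, while the Pbx3 pairs run from 0.01 to 1.67.

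The profile of each member over the 6 arrays was set against those of all tested genes by the root mean square difference of centred log2 values. Those nearest to Meis2 were Nfib, a nuclear factor I transcription factor (0.20), Pappa, a protease of insulin-like growth factor binding proteins (0.21), and Cgnl1, a junction protein (0.22). Pbx3 was nearest to Cgnl1 (0.19), Pappa (0.22) and the adhesion molecule Ncam1 (0.23), so that Cgnl1 and Pappa appear beside both. Pbx3 itself ranked 12 of 12027 from Meis2 and Meis2 ranked 15 from Pbx3, at a difference of 0.27. Both were lowest of the ventral arrays on ventral 1 and lowest of the dorsal arrays on dorsal 2.

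Meis1 had its nearest profiles in the mitochondrial protease gene Oma1 (0.09), the collagen receptor subunit gene Itga2 (0.10) and the elastin gene Eln (0.11), and Meis3 ranked 59 from it. Meis3 was nearest to Fam83d (0.05), Ccdc102a (0.07) and Speg (0.08). G630016G05Rik was nearest to the cadherin gene Cdh18 (0.28), E030003E18Rik (0.31) and the metalloprotease gene Adamts9 (0.32). For the members with small differences the nearest were Mxi1, Lat and Rnf19b for Pbx2, Lin54, Rttn and Rex1bd for Pknox1, and Luzp4, Galns and Cdc42ep5 for Pknox2. Likeness over 6 arrays describes these arrays, and genes with a like tissue difference are near each other by construction.

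**Figure D3:**
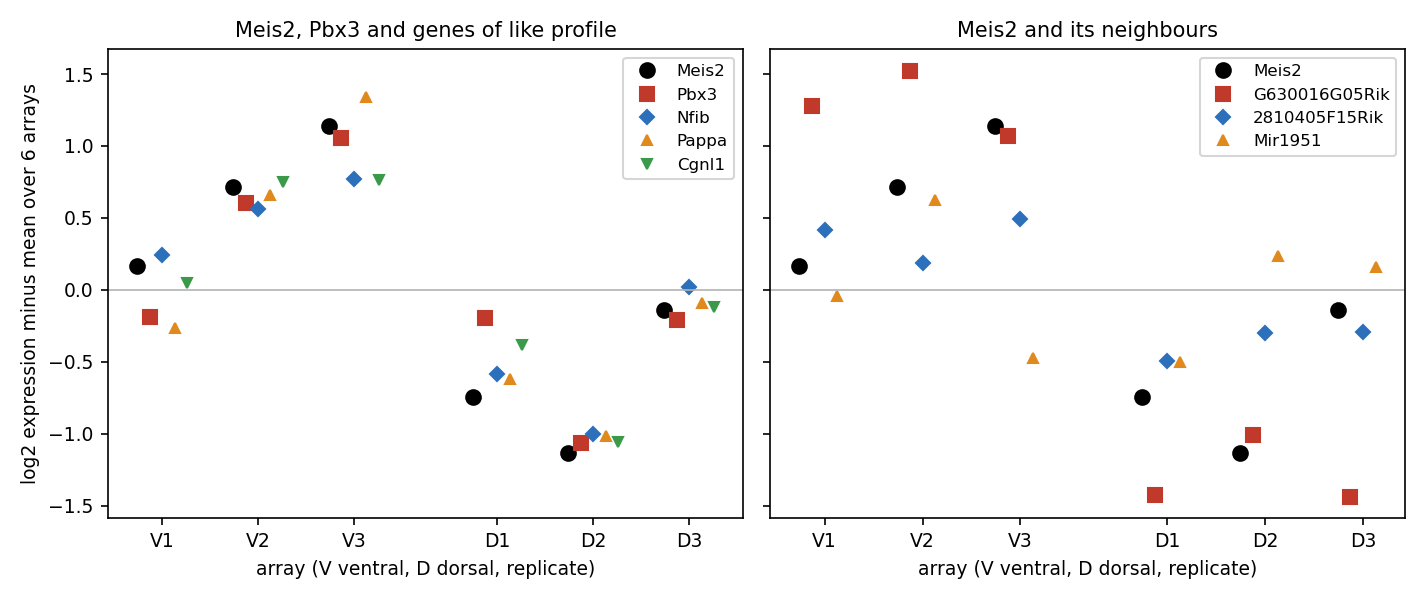
Log2 expression minus each gene's mean over the 6 arrays, on ventral arrays (V1 to V3) and dorsal arrays (D1 to D3). At left Meis2 and Pbx3 share their lowest array in each tissue with Nfib, Pappa and Cgnl1. At right G630016G05Rik is higher on all ventral than on all dorsal arrays but orders the arrays of a tissue unlike Meis2. The dorsal values of G630016G05Rik lie below the brightness filter, so their order is uncertain.

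Markers of several cell types varied between the same arrays. Coelomic and gonadal markers, 5 of 5 tested positive, had a summed log2 level over 8 genes of 42.7, 46.6 and 44.5 on ventral arrays 1 to 3 and of 36.5, 35.6 and 38.2 on dorsal arrays. These sums were lowest of the ventral arrays on ventral 1 and lowest of the dorsal arrays on dorsal 2, as were Meis2 and Pbx3. Of the 3 genes of that list below the filter, named after their values were seen, Msln and Nr5a1 had overlapping groups, and Emx2 lay the other way, at 3.62, 3.23 and 3.24 on ventral arrays and 5.01, 3.66 and 7.98 on dorsal arrays. Emx2 spread more widely over the dorsal arrays than the sums did, so the dorsal order of the sums depends on it. Endothelial markers, 8 of 8 positive, summed to 48.9, 51.2 and 52.5 on ventral arrays and to 43.7, 49.9 and 45.2 on dorsal arrays, lowest of the ventral arrays on ventral 1, as were Meis2 and Pbx3, but highest of the dorsal arrays on dorsal 2, where Meis2 and Pbx3 were lowest. Neuron markers, 3 of 8 tested positive, summed over 9 genes to 54.0, 60.6 and 62.5 on ventral arrays and to 59.0, 61.6 and 58.5 on dorsal arrays, likewise lowest of the ventral arrays on ventral 1 and highest of the dorsal arrays on dorsal 2. Stem and progenitor markers, 3 of 9 tested positive, ran over 12 genes from 61.2 to 62.8 on ventral and from 59.0 to 63.5 on dorsal arrays, with Gata2, Gfi1 and Ptprc below the filter. In that list Mecom had −1.35 ± 0.19 (limma adjusted p = 0.0583), Kit 1.01 ± 0.19 (0.118), Runx1 0.96 ± 0.33 (0.354) and Gfi1b −0.36 ± 0.19 (0.583). The dorsal mean of Runx1, 4.25, lay below the filter. Macrophage markers, 8 of 8 positive, ran from 47.0 to 48.9 on ventral and from 42.4 to 47.1 on dorsal arrays, and erythroid markers, 5 of 5 tested negative, from 37.9 to 39.6 on ventral and from 41.8 to 42.2 on dorsal arrays over 6 genes. The erythroid sums too were lowest on ventral 1 and, within a narrow range, on dorsal 2. Megakaryocyte markers, 1 of 1 tested positive, summed over 5 genes to 21.5, 23.1 and 26.6 on ventral arrays 1 to 3. On dorsal arrays 1 to 3 they summed to 22.4, 22.7 and 26.1, highest on replicate 3 as on the ventral side. Mesonephros and nephric duct markers, 1 of 2 tested positive, ran over 6 genes from 23.4 to 25.3 on ventral arrays. They ran from 22.9 to 24.6 on dorsal arrays. The part of these cell types in the differences of the members was not tested.

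The partners and reported targets of TALE proteins were compared by 6 lists. Among other TALE genes, 8 of 10 named were tested, with 3 positive and 5 negative values, and limma called none with or without the block (1 at an unadjusted p below 0.05). The largest values were those of the Iroquois genes Irx1 (−0.67 ± 0.30), Irx3 (−0.60 ± 0.29) and Irx5 (−0.46 ± 0.19) and of the repressor gene Tgif1 (0.25 ± 0.19). Without replicate 3 the values were −0.24 for Irx1, −0.18 for Irx3, −0.33 for Irx5 and 0.16 for Tgif1. The median of this list was −0.06, beside −0.01 over all tested genes.

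Hox genes, the main partners on DNA, were likewise not called in limma, with or without the block. Of 18 tested genes of paralog groups 1 to 8, 11 were positive and 7 negative (2 at an unadjusted p below 0.05), with a median of 0.10. The log2 fold change was −1.22 ± 0.44 for Hoxc8 (limma adjusted p = 0.385), 0.92 ± 0.25 for Hoxa4 (0.254), −0.84 ± 0.40 for Hoxc6 (0.537) and −0.47 ± 0.22 for Hoxd3 (0.516), so the values ran both ways. Leaving out 1 replicate moved several of them: Hoxc8 to −0.53 without replicate 2, Hoxc6 to −0.29 without replicate 1 and −1.43 without replicate 3, Hoxa4 to 0.60 and Hoxd3 to −0.71 without replicate 3. Of paralog groups 9 to 13 only 6 of 16 genes were bright enough to test, 3 positive and 3 negative (2 at an unadjusted p below 0.05). Hoxd10 had 1.05 ± 0.18 (adjusted p = 0.0864, and 0.438 without the block), Hoxd11 0.56 ± 0.23, and Hoxa9 and Hoxb9, a group that can pair with Meis1, −0.20 ± 0.30 and −0.20 ± 0.20. Without replicate 3 Hoxd11 had 0.31, Hoxa9 0.20 and Hoxb9 −0.05.

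Other protein partners were mostly dim: 3 of 10 were tested and none passed (0 at an unadjusted p below 0.05). Pbxip1, a protein that binds Pbx and keeps it from DNA, had 0.13 ± 0.17, the muscle factor gene Myog −0.07 ± 0.32 and Tlx1, a homeobox gene of spleen formation, 0.02 ± 0.26, the signs of Myog and Tlx1 turning when 1 replicate was left out. Of 19 genes reported as Meis or Pbx targets 15 were tested, 10 positive and 5 negative with a median of 0.02, and limma called none with or without the block (1 at an unadjusted p below 0.05). Myb, a factor of blood progenitors, had −1.03 ± 0.18 (adjusted p = 0.0873, with all 3 dorsal arrays above the ventral ones), Trib2 −0.58 ± 0.24, Hoxa2 0.37 ± 0.34 and Aldh1a2 0.77 ± 0.70. The ventral mean of Myb, 4.42, lay below the filter, so Myb was tested through its dorsal arrays. The direction turned for Hoxa2 without replicate 3 (−0.16) and for Aldh1a2 without replicate 1 (−0.45), and Trib2 had −0.33 without replicate 3. Flt3, a receptor gene of early progenitors, lay below the filter, at means of 2.86 in ventral and 2.95 in dorsal tissue.

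Retinoic acid genes were included because Meis genes respond to it. Of 13 tested, 7 were positive and 6 negative, with a median of 0.36, and 1 passed. Aldh1a1, a retinaldehyde dehydrogenase, rose in ventral tissue, with 5.43 to 5.93 on the 3 ventral arrays, against 3.86 to 4.15 on the 3 dorsal arrays (log2 fold change 1.62 ± 0.18, limma adjusted p = 0.0258). All its dorsal arrays lay below the filter level of 4.52, so it was tested through its ventral arrays and the fold change gives no exact ratio of transcript. It did not pass without replicate 1 (0.0521) or without replicate 3 (0.0750). Crabp1, which binds retinoic acid in the cytoplasm, had −1.14 ± 0.22 (adjusted p = 0.121), Rdh10, which makes retinaldehyde, 0.71 ± 0.34 (0.537), and Aldh1a2, the chief synthetic enzyme of the early embryo, 0.77 ± 0.70 (0.789). The Rdh10 value was 1.14 without replicate 1 and 0.22 without replicate 2. Aldh1a2 ranged from 3.73 to 7.33 over ventral arrays and from 4.13 to 5.75 over dorsal arrays, its pairs differed by 3.20, −0.39 and −0.51, and without replicate 1 its sign turned (−0.45). Rarb, a receptor gene that retinoic acid induces, named here after its values were seen, had 0.70 ± 0.23 (adjusted p = 0.348) with groups that did not overlap. Rarg (−0.57 ± 0.31) and Dhrs3 (−0.52 ± 0.30), also named after their values were seen, went the other way with groups that overlapped.

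**Figure D4:**
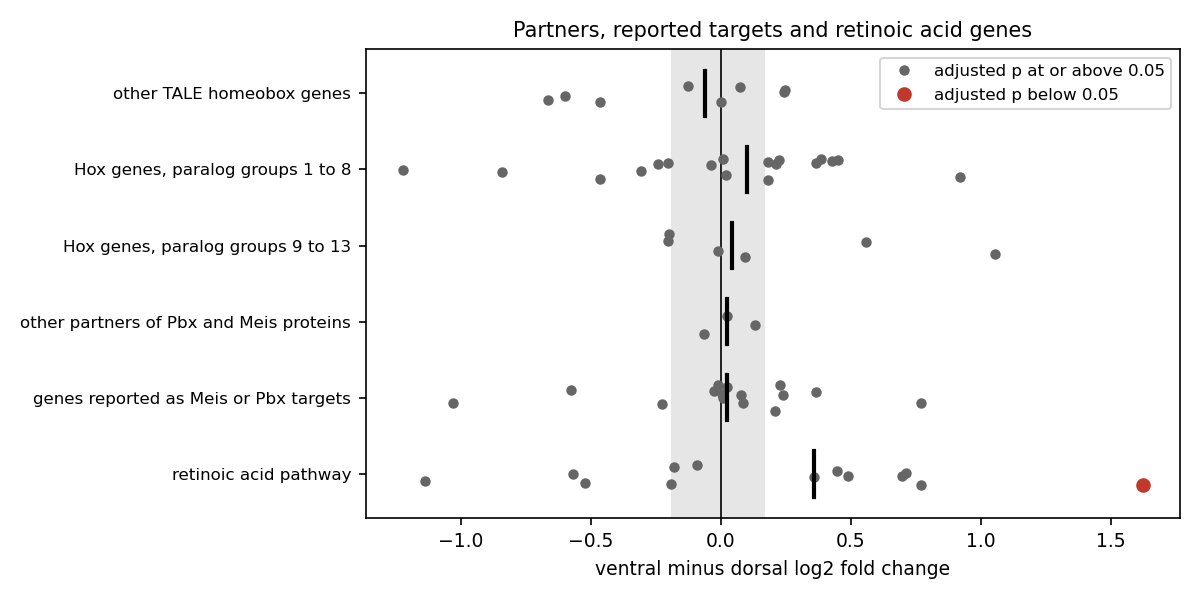
Ventral minus dorsal log2 fold change of each tested gene in the 6 lists (dots, spread vertically for legibility), with the list median as a black bar and the interquartile range of all tested genes shaded. Aldh1a1 at 1.62 is the one gene with an adjusted p below 0.05 (red), and the values of the Hox genes run from −1.22 to 1.05.

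Of 28 genes lying within 2 places of a member in RefSeq order, 18 were measured and 12 tested, and limma called none with or without the block (3 at an unadjusted p below 0.05). The share of all tested genes at that unadjusted p is not given here. Nothing is therefore read from such counts, for these neighbours or for the lists above. Fez1, next to Pknox2 and known from axon growth, had −1.31 ± 0.43 (adjusted p = 0.345), with dorsal 3 alone at 7.06, and Tmem218, on the other side, had −0.08 ± 0.19. Beside Pbx3 lie Mapkap1, a subunit of the mTOR complex (0.02 ± 0.17), and C230014O12Rik, below the filter at means of 2.78 in ventral and 2.64 in dorsal tissue. Pbx2 lies between Gpsm3 (0.20 ± 0.25) and Ager (−0.04 ± 0.17), and Pknox1 between Ndufv3 (0.04 ± 0.18) and Cbs, which was below the filter at means of 4.49 in ventral and 4.48 in dorsal tissue.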

How the data were processed

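Total RNA of 3 ventral and 3 dorsal samples was measured on Affymetrix arrays after amplification, per the labels' protocols. Deposited values were log2 levels, with 1 probe set per Entrez gene, made by the authors with RMA in Affymetrix Expression Console per the submitters' processing notes; RMA in general corrects background, normalizes by quantiles and summarises probes. Software versions and build: not given in the sources used here. Amplification of picogram inputs and array background compress differences of dim genes.

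Groups and replicate numbers came from the titles. Ventral minus dorsal was fitted with limma 3.58.1 under R 4.3.3 (eBayes without trend, replicate number as fixed block, two-sided, Benjamini-Hochberg adjustment) over 12028 genes with 1 symbol and a mean reaching 4.52, the median over 24973 probe sets. All adjusted p come from this fit unless stated. Each test had 6.41 degrees of freedom, and the number of arrays limits precision. On simulated data for this comparison, run on 12028 genes, 84% of genes changed by a log2 value of 2 were called. The simulated arrays had no replicate effect. Changes below a log2 value of 2 were not simulated, so the share does not apply to smaller differences. The block follows the labels, which say that both tissues came from the same embryos, though not that a number marks an embryo. Deviations of same-numbered arrays correlated by 0.0992, 0.0763 and 0.226 (across genes), which is weak.

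The members, lists, markers and tests were chosen with earlier results of these data known. The 8 members, their nearest measured neighbours, the called genes and up to 4 largest values of each list, and the 3 nearest profiles of each member are named. Of the marker lists, the text gives sums, called genes and the 4 largest values of the stem and progenitor list. Some further genes of these lists are also named. Gene order, and symbols for 8 members (7 with the same gene identifier, G630016G05Rik by symbol only), came from RefSeq GRCm38.p6. Alternatives left out the block, each replicate, the filter, or changed the filter, scaling or eBayes trend.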

Additional observations from a re-analysis of the deposited data

How the results depend on the processing

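Over 9 alternatives no member changed the sign of its log2 fold change where it was tested. The stricter brightness filter, at a mean of 6.07, left 5 members tested, without Meis3, Pknox1 and G630016G05Rik. Leaving out each replicate in turn gave 1.10 to 1.56 for Meis2, 2.52 to 2.62 for G630016G05Rik, 0.50 to 0.88 for Meis1 and 0.64 to 1.47 for Pbx3. With no replicate block, 59 genes passed instead of 62, 45 of them shared, and G630016G05Rik was again the 1 member called. It was not bright enough for the stricter filter, which left 0 members called, 15 genes higher in dorsal tissue, 0 retinoic acid, 1 sclerotome, 2 coelomic and 1 stem cell gene. Without the brightness filter 10 genes passed (8 higher in ventral and 2 in dorsal tissue), with 0 retinoic acid and 0 sclerotome genes. With a trend on mean level 94 passed (56 and 38), with 2 members (Meis2 besides) and 2 retinoic acid genes. Without each replicate in turn 48 to 75 genes passed, 22 to 54 higher in ventral tissue and 18 to 26 in dorsal tissue, with 0 to 1 retinoic acid, 1 to 3 sclerotome and 1 to 2 coelomic genes. The lowest ventral count, 22, was that without replicate 3. The causes were not tested. Of 57 list genes followed, 8 changed sides of the threshold under some alternative. The sign of the log2 fold change turned for 11, none of them called and each when 1 replicate was left out, among them Myog to 0.40 and Hoxa9 to 0.20 without replicate 3, Tlx1 to −0.31 and Pf4 to −0.11 without replicate 2. The brightness of a probe set limits what dim genes can show.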
